A study of Mus musculus with 4 samples.

Results

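The genes described here form the switch for entry into mitosis: Chek1, Wee1, Pkmyt1, Cdc25a, Cdc25b, Cdc25c, Cdk1, Ccna2, Ccnb1 and Ccnb2. They were taken by gene symbol, and each of the 10 matched 1 row of the 11160 features in the deposited table of expressed genes. Strand-specific RNA-seq, after depletion of ribosomal RNA, was carried out on neural progenitor cells from the dorsal telencephalon of C57BL/6J mouse embryos at embryonic day 12.5. The cells were grown as neurospheres, free-floating balls of progenitors, in medium with N2, B27, insulin and FGF. There were 2 wild-type libraries, WT 1 and WT 2, and 2 libraries labelled Mcph1 KO, here KO 1 and KO 2. Both genotypes shared strain, age, medium and sequencing lane. Each library came from pooled cultures of 1 genotype, so p-values measure the spread between pools. The labels call the mutation a full knockout and do not name the deleted part of Mcph1.

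Entry into mitosis is driven by Cdk1 bound to cyclin A or cyclin B. The kinases Wee1 and Myt1 (gene Pkmyt1) hold Cdk1 inactive by phosphorylating it next to its ATP site, and the Cdc25 phosphatases remove that block. Chk1, the checkpoint kinase encoded by Chek1, restrains Cdc25 while DNA is being replicated or repaired. Microcephalin, the product of Mcph1, delays chromosome condensation and mitotic entry, and in mouse neural progenitors it has been placed upstream of Chk1 and Cdc25.

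Genes of the late cell cycle are commonly held silent in G1 and released in G2 through a CHR element (cell cycle genes homology region) near their start, often beside CCAAT boxes, which bind the factor NF-Y. Promoters of 300 bases, from 250 before to 50 after the annotated start, were taken from RefSeq on build GRCm38.p6 for 6 of the 10 genes, matched by symbol: Cdk1, Ccnb1, Ccnb2, Chek1, Cdc25a and Cdc25b. The promoters of Cdk1, Ccnb1 and Ccnb2, whose estimates were the lowest, are shown beside that of Cdc25b, whose estimate was the highest. Each is written 5′ to 3′ on the strand of the gene. Capitals mark every match, on either strand, to CCAAT, to the CHR letters TTTGAA, to the CHR-like letters TTTAAA, or to the E2F core TTNNCGC with C or G at each N.
Cdk1: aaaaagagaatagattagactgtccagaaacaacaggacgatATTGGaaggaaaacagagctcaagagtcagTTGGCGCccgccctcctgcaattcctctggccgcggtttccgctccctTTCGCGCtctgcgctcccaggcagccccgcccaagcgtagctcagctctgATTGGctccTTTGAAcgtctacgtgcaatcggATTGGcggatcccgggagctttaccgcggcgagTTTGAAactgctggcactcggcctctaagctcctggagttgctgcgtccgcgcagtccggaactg
Ccnb1: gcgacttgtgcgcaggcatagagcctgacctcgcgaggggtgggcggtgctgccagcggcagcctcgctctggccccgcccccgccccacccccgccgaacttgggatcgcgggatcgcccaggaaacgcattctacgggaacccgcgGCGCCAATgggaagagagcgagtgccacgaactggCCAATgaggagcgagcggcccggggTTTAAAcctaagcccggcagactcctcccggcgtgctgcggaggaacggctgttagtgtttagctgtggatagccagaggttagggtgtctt
Ccnb2: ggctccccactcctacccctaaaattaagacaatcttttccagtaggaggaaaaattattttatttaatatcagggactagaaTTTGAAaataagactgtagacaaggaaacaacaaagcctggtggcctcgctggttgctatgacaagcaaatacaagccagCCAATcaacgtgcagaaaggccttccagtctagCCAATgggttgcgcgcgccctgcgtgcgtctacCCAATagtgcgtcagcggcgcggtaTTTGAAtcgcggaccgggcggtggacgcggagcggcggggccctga
Cdc25b: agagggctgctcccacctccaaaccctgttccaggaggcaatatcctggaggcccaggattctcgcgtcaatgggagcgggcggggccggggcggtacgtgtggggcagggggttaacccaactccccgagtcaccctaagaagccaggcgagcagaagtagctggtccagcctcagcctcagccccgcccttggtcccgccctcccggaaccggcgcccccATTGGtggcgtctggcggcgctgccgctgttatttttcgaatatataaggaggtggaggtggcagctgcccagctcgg
Their positions on GRCm38.p6 are chr10:69352863-69353162 on the minus strand for Cdk1, chr13:100786437-100786736 on the minus strand for Ccnb1, chr9:70421505-70421804 on the minus strand for Ccnb2 and chr2:131186698-131186997 on the plus strand for Cdc25b.

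The Cdk1 promoter held 3 CCAAT boxes and 2 matches to TTTGAA, 1 of them starting 15 bases before the annotated start. In Ccnb2 there were also 3 CCAAT boxes, at 87, 54 and 21 bases before the start, and 2 matches to TTTGAA. Ccnb1 held 2 CCAAT boxes and 1 TTTAAA, 42 bases before the start, and no TTTGAA. The Cdc25b window held 1 CCAAT box and neither of the CHR forms searched, TTTGAA and TTTAAA. It also holds the letters TTCGAA, which were not searched for in any promoter, so other CHR spellings are left unchecked. Cdc25a held 2 CCAAT boxes and neither CHR form. Chek1, whose log2 fold change was also low (-0.78), held no CCAAT box and neither CHR form. A relation between motifs and fold changes was not tested. E2F core letters occurred 2 times in Cdk1 and Cdc25a and 1 time in Ccnb1, where they overlapped a CCAAT box, and in Chek1. The 2 matches in Cdc25a overlapped each other on opposite strands. Over all 32851 RefSeq promoters of the same length, 37.4% held a CCAAT box, 11.7% held at least 2, 17.9% held TTTGAA, 13.2% held TTTAAA and 9.57% held an E2F core. At least 2 CCAAT boxes together with either CHR form were found in 3.13% of all promoters, and in Cdk1, Ccnb1 and Ccnb2 among the 6. A match is a stretch of letters and does not show that a factor binds there.

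**Figure D1:**
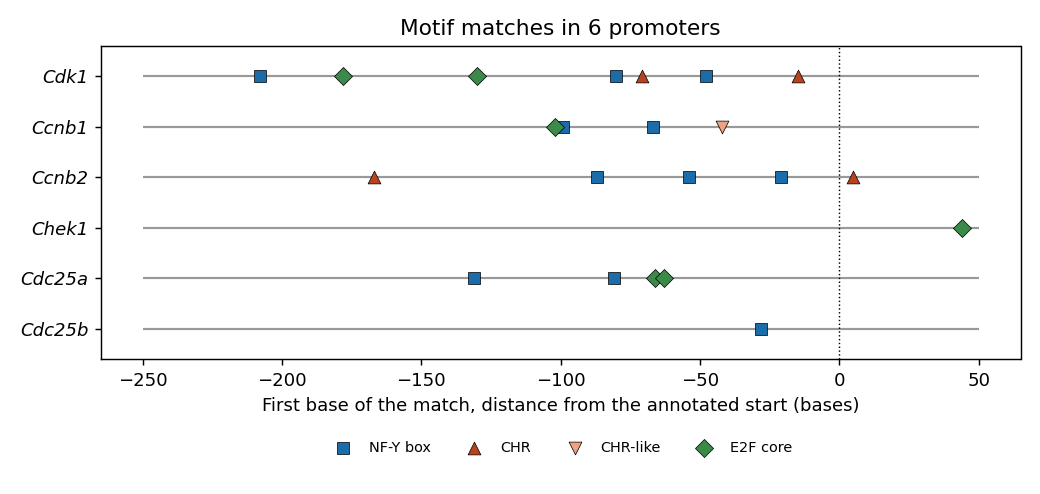
Matches to 4 motifs in the promoters of 6 genes, by distance in bases from the annotated start (dotted line). Cdk1, Ccnb1 and Ccnb2 hold boxes for NF-Y together with a CHR or CHR-like match. Of the 4 motifs searched, Cdc25b matches only the box for NF-Y and Chek1 only the E2F core. A relation between motifs and fold changes was not tested.

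Levels are scaled counts per 1000000 (CPM), after the deposited values had been brought to a common scale. From the deposited values 5975471 to 22347416 whole reads per library were recovered, the most in WT 2 and the fewest in KO 2. A gene was called at an adjusted p under 0.05 by limma, a linear model fitted to log2(scaled value + 1) over 10959 features. The test called 0 features, or 0% of those tested, so 0 of the 10 genes were called. DESeq2, run on the recovered reads, called 21 features, 0.188% of those listed, and 0 of the 10. At an unadjusted p under 0.05, 4.01% of features were lower and 3.58% higher in KO by limma. Mcph1 levels were 21.1 and 21.6 CPM in the WT libraries, 19.5 CPM in KO 1 and 20.3 CPM in KO 2 (log2 fold change -0.10, SE 0.24), so the count over the whole gene does not check the label, and directions are given for libraries as labelled. Of the markers looked up for microglia, endothelium and pericytes, meninges and red blood cells, 0 of 7, 0 of 7, 0 of 6 and 0 of 4 matched a listed symbol, so these cells were not analysed here. All 12 markers of radial glia and progenitors were measured, with a summed level of 13043 and 13369 CPM in WT and 6412 and 9184 CPM in KO 1 and KO 2. Fabp7, at 5307 and 5387 CPM in WT and 2020 and 2263 CPM in KO, and Vim, at 4757 and 4911 CPM in WT and 2208 and 4211 CPM in KO, made up most of this sum. Of the 12, 5 had estimates above and 7 below 0, 0 were called, and the median log2 fold change was -0.14, or -0.24 in KO 1 and 0.060 in KO 2 against the WT mean. The part of this marker difference in the values of the switch genes was not tested. Astrocyte markers, 6 of 7 measured, summed to 1960 and 879 CPM in WT and 903 and 1398 CPM in KO, and the 7 oligodendrocyte lineage markers to 1018 and 994 CPM in WT and 677 and 975 CPM in KO.

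The switch genes lay lower in the KO-labelled libraries, apart from Cdc25a and Cdc25b. In 8 of the 10, both KO libraries stood below both WT libraries, where 20.0% of all tested features did so. Estimates were below 0 for the same 8, against 48.6% of all features. Values as deposited, which moved the median of all features to -1.25, put all 10 below 0. The median log2 fold change of the 10 genes was -0.46, or 0.726-fold, beside 0.012 over all features. An unadjusted p under 0.05 was found for 4 of the 10, Ccnb1, Ccnb2, Cdk1 and Chek1, each lower, beside 4.01% of all features. None passed adjustment (adjusted p = 0.655 for each by limma). For Chek1 the unadjusted limma p was 0.0515 with a trend in transcript length and base composition taken out. It was 0.0712 with replicate number in the model. Ccnb1, Ccnb2 and Cdk1 stayed under 0.05 in both settings. In bulk RNA, fewer cells in G2 and mitosis and less RNA per such cell cannot be told apart.

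**Figure D2:**
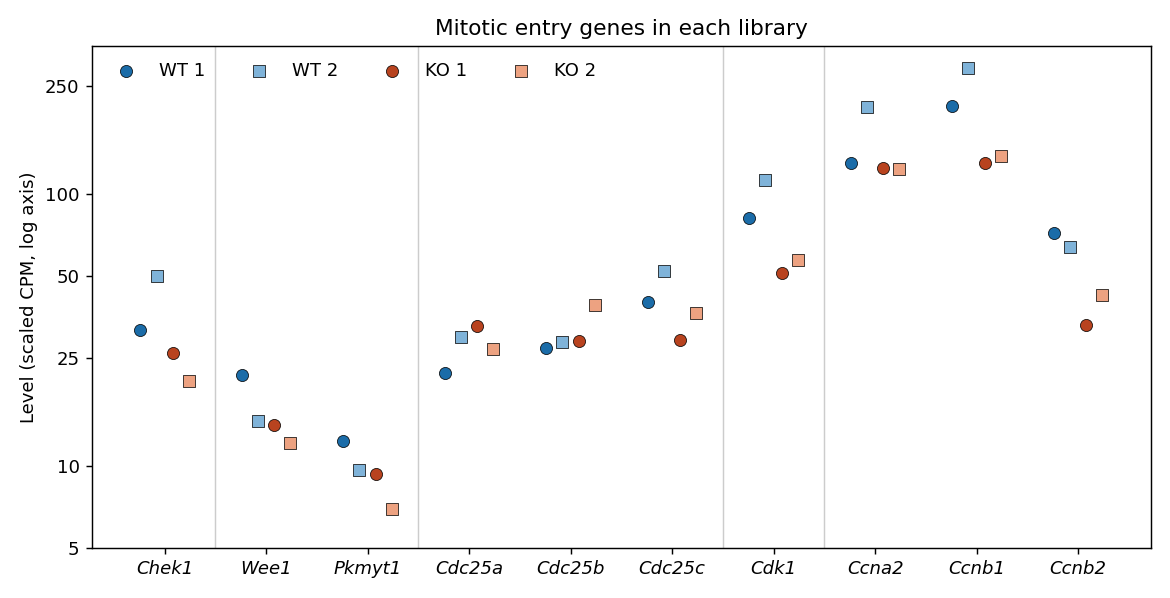
Level of each gene (scaled CPM, log axis) in the 4 libraries, ordered as Chk1, inhibitory kinases, Cdc25 phosphatases, Cdk1 and cyclins. Both KO libraries lie below both WT libraries for 8 genes, and Cdc25a and Cdc25b are the exceptions.

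Chek1, the checkpoint kinase, stood at 31.5 CPM in WT 1, 49.8 CPM in WT 2, 26.0 CPM in KO 1 and 20.4 CPM in KO 2. WT 2 was the highest and the groups did not overlap. By limma the log2 fold change came to -0.78 (SE 0.31), with a 95% interval of -1.52 to -0.035 (unadjusted p = 0.0426, adjusted p = 0.655). It was -0.45 without WT 2 and -1.11 without WT 1.

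Wee1, the nuclear kinase that phosphorylates Cdk1, stood at 21.5 CPM in WT 1, 14.7 CPM in WT 2, 14.2 CPM in KO 1 and 12.1 CPM in KO 2. WT 1 stood apart, and WT 2 lay just above KO 1. It had an estimate of -0.44 (SE 0.30) by limma, with a 95% interval of -1.17 to 0.29 (adjusted p = 0.712), and one of -0.16 without WT 1 and -0.71 without WT 2. Pkmyt1, the membrane-bound kinase with the same target, followed the same order of libraries, at 12.4, 9.65, 9.35 and 6.93 CPM in WT 1, WT 2, KO 1 and KO 2. The difference between WT 2 and KO 1 was within counting error, since the 95% Poisson intervals of the reads ran from 8.39 to 11.0 CPM and from 7.68 to 11.3 CPM. With upper-quartile scaling the Pkmyt1 groups overlapped. Poisson intervals also overlapped for Wee1, at 13.1 to 16.4 CPM in WT 2 and 12.1 to 16.5 CPM in KO 1. Those of the nearest WT and KO libraries overlapped likewise for Chek1, Cdc25c and Ccna2, and not for Cdk1, Ccnb1 and Ccnb2. Pkmyt1 was the least sequenced of the 10 genes, with 39 reads in KO 2 against 6368 reads for Ccnb1 in WT 2, and such intervals cover counting error only. The estimate for Pkmyt1, -0.43 (SE 0.32), had a 95% interval of -1.21 to 0.34 (limma, adjusted p = 0.731), and was -0.23 without KO 2 and -0.26 without WT 1.

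Estimates for the 3 phosphatases lay on both sides of 0, and their 95% intervals overlapped and each included 0; differences between the 3 were not tested. Cdc25a, which acts from G1/S onward, stood at 21.9 CPM in WT 1, 29.9 CPM in WT 2, 32.7 CPM in KO 1 and 26.8 CPM in KO 2. Its groups overlapped, and the limma estimate was 0.21 (SE 0.27), with a 95% interval of -0.45 to 0.87 (adjusted p = 0.836). It was -0.011 without WT 1, 0.069 without KO 1, 0.43 without WT 2 and -1.06 on the values as deposited. Cdc25b, which starts Cdk1 activation at the centrosome in G2, stood at 27.1 CPM in WT 1, 28.5 CPM in WT 2, 28.8 CPM in KO 1 and 39.1 CPM in KO 2. It was the only one of the 10 with both KO libraries above both WT libraries, beside 21.1% of all features, and KO 1 exceeded WT 2 by little. Its limma estimate was 0.27 (SE 0.26), with a 95% interval of -0.35 to 0.90 (adjusted p = 0.774). The estimate was 0.043 without KO 2, 0.49 without KO 1 and -0.996 on the values as deposited. Cdc25c, which amplifies Cdk1 activation at the onset of mitosis, stood at 40.3 CPM in WT 1, 52.1 CPM in WT 2, 29.1 CPM in KO 1 and 36.6 CPM in KO 2. KO 2 lay nearer to WT 1 than to KO 1 on the scale of CPM, and the groups did not overlap (limma estimate -0.49, SE 0.26, 95% interval -1.12 to 0.14, adjusted p = 0.672). The Cdc25c estimate was -0.30 without WT 2 and -0.32 without KO 1.

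Cdk1, the kinase at the centre of the switch, stood at 81.9 CPM in WT 1, 112 CPM in WT 2, 51.3 CPM in KO 1 and 57.4 CPM in KO 2. The KO libraries lay close together and below WT 1, the lower of the WT pair. In limma the estimate was -0.82 (SE 0.25), or 0.566-fold, with a 95% interval of -1.43 to -0.21 (unadjusted p = 0.0159, adjusted p = 0.655).

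Ccna2, which encodes the cyclin A of S phase and G2, stood at 130 CPM in WT 1, 209 CPM in WT 2, 125 CPM in KO 1 and 124 CPM in KO 2. WT 2 alone was high, and WT 1 lay beside the KO libraries. The estimate of -0.40 (SE 0.28, adjusted p = 0.718 by limma) was -0.064 without WT 2 and -0.74 without WT 1, and the groups overlapped once a trend with transcript length and base composition was taken out. Ccnb1, the main mitotic cyclin, stood at 211 CPM in WT 1, 291 CPM in WT 2, 130 CPM in KO 1 and 138 CPM in KO 2. Ccnb2, a second B-type cyclin of G2 and mitosis, stood at 71.6 CPM in WT 1, 63.8 CPM in WT 2, 32.9 CPM in KO 1 and 42.5 CPM in KO 2. Both B-type cyclins thus lay lower in each KO library than in either WT library, with WT 2 the highest for Ccnb1 and WT 1 for Ccnb2. Their log2 fold changes were -0.89 (SE 0.25, 0.540-fold) and -0.85 (SE 0.24, 0.554-fold), at an unadjusted p of 0.0109 and 0.0118 by limma. Leaving out each library in turn, the Ccnb1 estimate ran from -1.12 to -0.66 and that of Ccnb2 from -1.05 to -0.67.

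**Figure D3:**
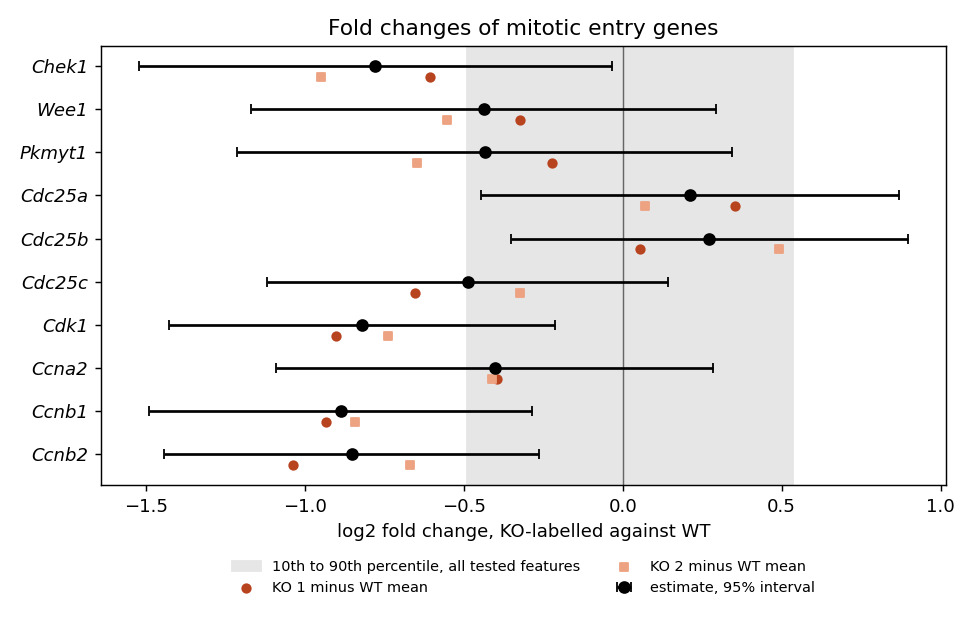
Log2 fold change of each gene, KO-labelled against WT (black point with 95% interval from limma), with KO 1 and KO 2 each against the WT mean in colour. The grey band holds the middle 80% of all tested features, from -0.49 to 0.54, and Chek1, Cdk1, Ccnb1 and Ccnb2 lie below it.

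The low values were seen in each KO library. Against the WT mean, the median of the 10 genes was -0.50 in KO 1 and -0.60 in KO 2 on the log2 scale, and over all features 0.0049 and 0.0086. The WT libraries also differed from each other in these genes: the median of WT 2 minus WT 1 was 0.41, against -0.00017 over all features, while KO 2 minus KO 1 gave 0.038. WT 2 was higher than WT 1 for 7 genes and lower for Wee1, Pkmyt1 and Ccnb2. Markers of neurons moved with KO 1 and not with KO 2. Of 16 such markers 14 were measured, and they summed to 964 and 1077 CPM in WT, 2111 CPM in KO 1 and 919 CPM in KO 2. All 14 had estimates above 0, 0 were called, and in 2 both KO libraries stood above both WT libraries, as did 21.1% of all features. Without KO 1, the median of the switch genes was -0.60. Transcript length moved with the fold change over all features, whose median was -0.13 among transcripts 1000 to 2000 bases long, -0.011 from 2000 to 4000 and 0.069 from 4000 to 6000. Those classes held 2, 7 and 1 of the 10 genes, and their median was -0.50 once a trend with length and base composition was taken out. Single genes moved both ways there. Estimates were smaller in size for Ccnb1 (-0.72), Ccnb2 (-0.69), Chek1 (-0.68), Cdc25c (-0.34), Ccna2 (-0.33), Cdc25b (0.18) and Cdc25a (0.11). They were larger in size for Cdk1 (-0.88), Pkmyt1 (-0.52) and Wee1 (-0.48).

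Ratios between genes of the same library do not depend on how the libraries were scaled, apart from the 1 added to each scaled value. A trend with length and base composition that differs between libraries does not cancel in them, and the ratios were not recomputed without it. For 10 pairs fixed with earlier results known, log2 ratios were compared between groups by an exact two-sided permutation test, whose smallest possible p with 2 against 2 libraries is 0.333. Cdc25b relative to Cdk1 stood at -1.59 in WT 1, -1.98 in WT 2, -0.83 in KO 1 and -0.55 in KO 2 on the log2 scale. The KO values lay above the WT values, a difference in log2 ratio of 1.09 or 2.13-fold (exact permutation p = 0.333, adjusted p = 0.667 over the 10 pairs), and it ran from 0.90 to 1.29 when each library was left out. Cdc25b relative to Chek1 was -0.22 and -0.80 in the WT libraries, 0.15 in KO 1 and 0.93 in KO 2, so that Cdc25b had fewer reads than Chek1 in both WT libraries and more in both KO libraries. That ratio differed by 1.05, or 2.07-fold (exact permutation p = 0.333), and by 0.66 without KO 2, the lowest of a range of 0.66 to 1.44 when each library was left out. Cdc25b relative to Wee1 was 0.71 higher in KO, without overlap, and the difference was 0.38 without KO 2, 0.40 without WT 1 and at most 1.04 when each library was left out. The ratio of Ccna2 to Cdk1 was also higher in KO, at 1.28 and 1.11 against 0.67 and 0.89 in WT (exact permutation p = 0.333).

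Ccnb1 and Cdk1 kept nearly the same ratio in all 4 libraries. It stood at 1.37 in both WT libraries, 1.34 in KO 1 and 1.27 in KO 2, and the group means differed by -0.067 on the log2 scale. Small as the difference was, both KO values lay below both WT values (exact permutation p = 0.333). The limma estimates of Ccnb1 and Cdk1 were -0.89 and -0.82. Once a trend with length and base composition was taken out they were -0.72 and -0.88. Ratios of Ccnb2, Wee1, Pkmyt1 and Chek1 to Cdk1, and of Ccnb1 to Ccnb2, overlapped between the groups. For Wee1 to Cdk1 the value ran from -2.93 in WT 2 to -1.85 in KO 1, with WT 1 at -1.92 and KO 2 at -2.24.

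**Figure D4:**
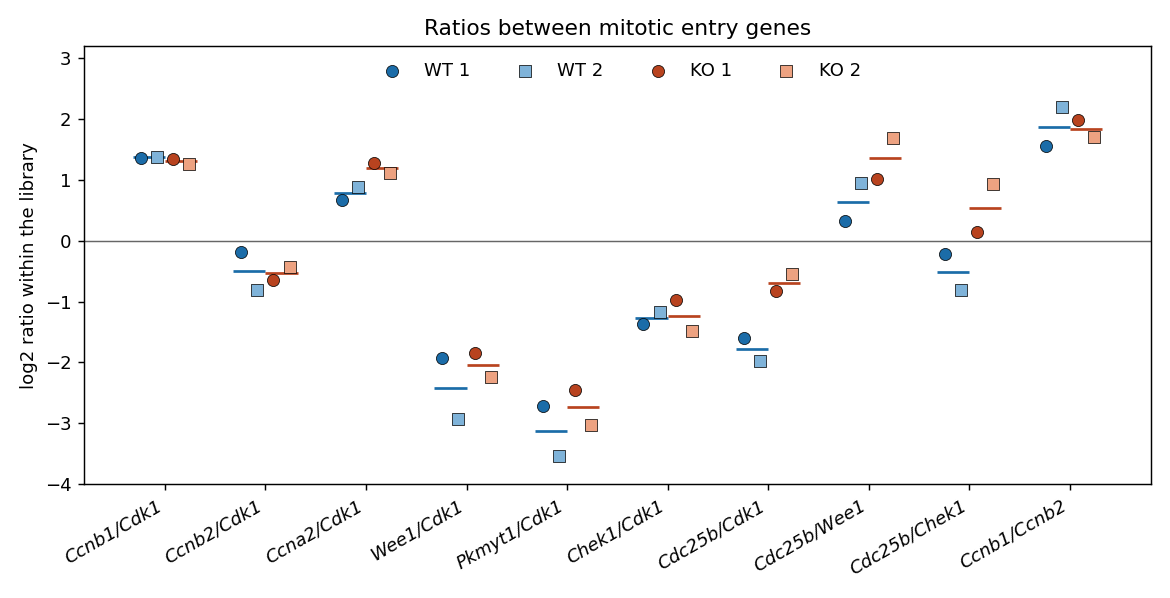
Log2 ratio of 10 pairs of genes within each library, with bars at the group means. The ratios of Cdc25b to Cdk1, Wee1 and Chek1 and of Ccna2 to Cdk1 are higher in both KO libraries than in both WT libraries, and that of Ccnb1 to Cdk1 lies between 1.27 and 1.37 in all 4.

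Per length, the cyclins were the most abundant of the 10 in WT. CPM were divided by the length of the longest coding transcript of the gene in GENCODE M21, so a gene expressed mainly as a shorter form is understated. Ccnb1 stood at 101 ± 22.7 CPM per kilobase in WT (SD, n = 2), followed by Ccna2 at 57.1 ± 18.7 and Ccnb2 at 44.2 ± 3.62, and the WT values of Ccna2 and Ccnb2 overlapped. Cdc25c at 23.7 ± 4.31 and Cdk1 at 22.2 ± 4.93 CPM per kilobase came next and overlapped each other. Chek1 followed at 10.7 ± 3.40, with Cdc25b at 8.99 ± 0.324 inside its range, and Cdc25a at 7.13 ± 1.54. The inhibitory kinases were the lowest by mean, Pkmyt1 at 5.39 ± 0.938 and Wee1 at 5.29 ± 1.41 CPM per kilobase, and did not differ beyond their spread. The WT values of both overlapped those of Cdc25a, 6.04 and 8.22 CPM per kilobase. In KO the same 5 genes led in the same order by mean, from Ccnb1 at 53.9 ± 2.40 to Cdk1 at 12.4 ± 0.984. The KO values of Cdk1, 11.7 and 13.1 CPM per kilobase, overlapped those of Cdc25b, 9.33 and 12.7. Chek1 moved from the sixth place to the eighth, at 6.12 ± 1.04, behind Cdc25b at 11.0 ± 2.36 and Cdc25a at 8.20 ± 1.14.

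Likeness of pattern was measured as the root-mean-square difference between profiles of log2(CPM + 1) over the 4 libraries, each centred on its own mean, among 8298 features with a proper symbol and at least 10 CPM. Over so few libraries it is a description only. The gene outside the 10 nearest to Ccnb1 was Immp1l, a mitochondrial inner membrane peptidase subunit, at 0.020. Cdk1 lay at 0.044 from Ccnb1, nearer than all but 0.012% of the candidates. After Immp1l came Nes, the progenitor filament nestin, Polr2f, an RNA polymerase subunit, Phgdh, an enzyme of serine synthesis, and Gmnn, the gene of the replication inhibitor geminin, all at 0.051 to 0.059. Outside the 10 genes, the nearest to Cdk1 were, in order, Gmnn at 0.032, Immp1l, Nes, Cbfb, a transcription factor subunit, and Polr2f. Wee1 had other neighbours outside the 10: Rcn2, Spg21, Ctsz, Snapc1 and Katnal2, at 0.050 to 0.058. Pkmyt1 lay at 0.092 from Wee1, with 0.277% of candidates nearer, whereas Ccnb1 lay at 0.43 from Wee1, with 66.2% nearer.

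Around the switch, genes upstream of Chk1 lay mostly lower. Of 15 genes of the ATR branch 14 were measured, 11 with estimates below and 3 above 0 (median -0.26), and 0 were called. Over all tested features 48.6% of estimates were below 0. In 7 of the 14 both KO libraries stood below both WT libraries, beside 20.0% of all features. Only Rpa3 had an unadjusted p under 0.05 by limma. Rpa3, a subunit of the complex that coats single-stranded DNA, stood at 57.7 and 40.9 CPM in WT and 24.6 and 22.6 CPM in KO (log2 fold change -1.04, SE 0.27). The replication fork protein Tipin had an estimate of -0.42 (SE 0.23), and Atr, the kinase that activates Chk1, stood at 26.1 and 24.1 CPM in WT and 19.9 and 16.9 CPM in KO (-0.45, SE 0.25). Partners in the G2 checkpoint, including p53 targets and the 14-3-3 proteins that bind phosphorylated Cdc25, gave 9 estimates above and 7 below 0 among 16 measured of 18 (median 0.23), with 0 called. Gadd45a, a stress-induced inhibitor of Cdk1, stood at 3.89 CPM in each WT library, 6.54 CPM in KO 1 and 10.3 CPM in KO 2 (1.06, SE 0.37). Mdc1, a scaffold at DNA breaks, had an estimate of 0.64 (SE 0.27) and Brca1, a repair and checkpoint protein, one of -0.80 (SE 0.37).

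Regulators of Cdk1, Wee1 and Cdc25, direct and indirect, gave 16 estimates below and 5 above 0 among 21 measured of 24 (median -0.16), with 0 called. Of all tested features 48.6% had an estimate below 0. Ccnf, which encodes cyclin F, stood at 33.2 and 35.3 CPM in WT and 22.3 and 25.6 CPM in KO (-0.52, SE 0.24). Mnat1, an assembly factor of the kinase that activates Cdk1, had an estimate of -0.59 (SE 0.29), and Mastl, the Greatwall kinase, which holds back the phosphatase that opposes Cdk1, one of -0.42 (SE 0.28). The transcription factors of the DREAM complex, B-Myb and FoxM1 gave 9 estimates above and 6 below 0 among 15 measured (median 0.11), also with 0 called. Rbbp4, a chromatin protein of DREAM, had the lowest, at -0.63 (SE 0.25), while the repressors Rbl2 and E2f4 stood at 0.29 (SE 0.23) and 0.30 (SE 0.24). Foxm1 and Mybl2, which activate genes with CHR elements and were named after their values were seen, stood at 12.8 and 11.2 CPM and at 14.4 and 18.4 CPM in WT. In KO 1 and KO 2 Foxm1 stood at 13.5 and 12.6 CPM and Mybl2 at 16.7 and 13.9 CPM, so the groups overlapped for both.

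**Figure D5:**
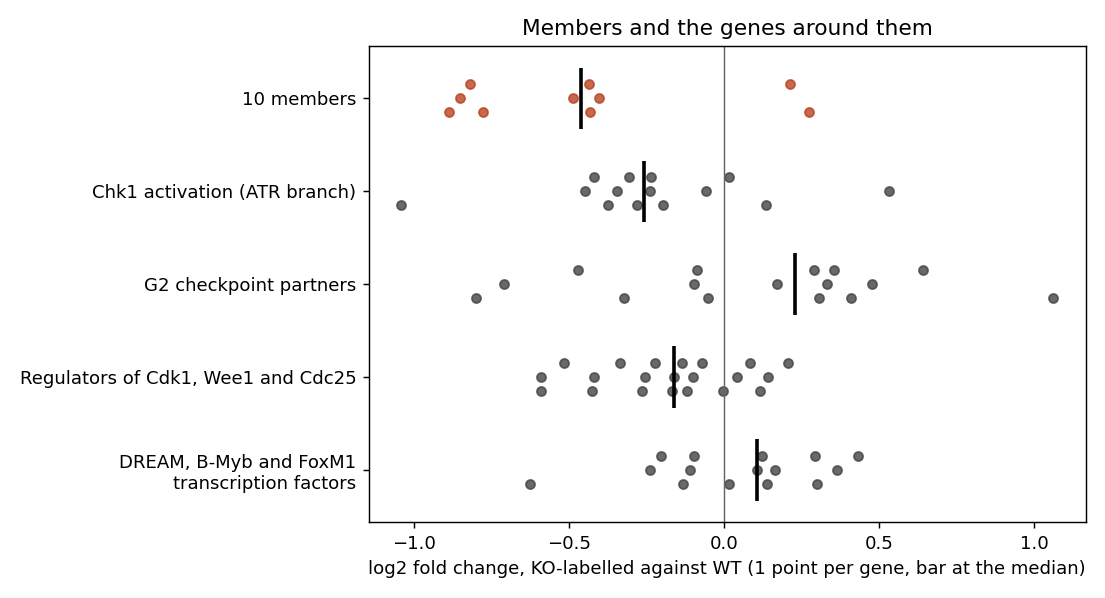
Log2 fold change of each measured gene, KO-labelled against WT, for the 10 switch genes and 4 lists around them, with a bar at each median. The switch genes have a median of -0.46, the ATR branch -0.26, and the transcription factors 0.11.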

How the data were processed

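The study measured RNA from 4 libraries, and its deposited table holds a signal per feature: as the deposited values show, each library's read counts were divided by a factor of its own. The submitters' processing notes name STAR 2.3.0, DESeq 1.12.1, SAMtools 0.1.19, Picard 1.119 and FastQC 0.10.1, without their roles. The annotation, build and filter were not given in the sources used here. Every value was a whole multiple of 1 step (100% within 0.01 of a step), which gave whole reads per feature. In WT 2, where the smallest value is 2 steps, the step came from the spacing between values.

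Values were scaled by TMM (edgeR 4.0.16), filtered by filterByExpr with a minimum count of 10, and fitted by limma 3.58.1 with a mean-variance trend on log2(scaled value + 1) under R 4.3.3. Tests were two-sided and adjusted by Benjamini-Hochberg over all features. A fold change on this scale understates changes of low genes. Named by rule are the 10 members, Mcph1, the 3 genes of each pathway list with the smallest p and 5 genes of like pattern for each of Ccnb1, Cdk1 and Wee1; Foxm1, Mybl2, Fabp7 and Vim were named after their values were seen. Members, lists and pairs were chosen with earlier results of these data known. Alternatives were other scalings, pseudocounts, filters, tests on recovered reads (limma-voom, edgeR's quasi-likelihood test, DESeq2 1.42.0), a replicate block, removal of a length and GC trend (lengths found for 88.3% of features) and each library left out. The functions were tested on simulated data.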

Additional observations from a re-analysis of the deposited data

How the results depend on the processing

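In all alternatives run, 0 of the 10 genes were called. The number with both KO libraries below both WT libraries was 7 or 8 with other scalings and with the length and GC trend removed. The values as deposited gave 9, but all features shifted there, and the share of all features was not counted. With a library left out the number cannot fall, so that setting does not check it. Pseudocounts, filters and tests do not enter it. Of 169 member estimates, 166 kept their direction and 3 turned: on the values as deposited Cdc25a (-1.06) and Cdc25b (-0.996), and Cdc25a between -0.011 and 0.43 with a library left out. The members' median was -1.73 on the values as deposited, where all features shifted too, and -0.71 to -0.51 with a library left out, with the lowest value without WT 1; the others gave -0.50 to -0.42. Among all features, 6 were called on the values as deposited and 21 by DESeq2, and 0 to 179 with a library left out (25 without KO 1 and 179 without KO 2, where the lone sample is assumed to vary like the others); the reported fit called 0, and 831 features were below an unadjusted p of 0.05. With a library left out, the difference in log2 ratio ran from -0.34 to 0.28 for Ccnb2 to Cdk1, -0.12 to 0.89 for Wee1 to Cdk1, -0.019 to 0.79 for Pkmyt1 to Cdk1, -0.21 to 0.30 for Chek1 to Cdk1 and -0.35 to 0.28 for Ccnb1 to Ccnb2. The cause of these changes was not tested. At a mean of at least 10 CPM Pkmyt1 was not fitted.

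Replicate numbers are shared by the genotypes, but the labels do not pair them, and across features the difference between replicates 2 and 1 in WT and in KO correlated at -0.31. A replicate block gave 0 calls and 473 features below an unadjusted p of 0.05, and crossing the pairing, chosen after seeing the data, gave 0 and 1481. Depth limits Pkmyt1 and Wee1 most, with 39 and 68 reads in KO 2.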
